A study of Mus musculus with 6 samples.

Results

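The genes described here are 56 components of Wnt signalling, found by exact symbol among the 54087 gene rows of 6 RNA-seq libraries. They are 13 Wnt ligands, 10 Frizzled receptors, 2 LRP co-receptors, 4 R-spondins, 5 R-spondin receptors and ligases, 8 secreted antagonists, 4 TCF/LEF transcription factors, 5 genes of beta-catenin and its destruction complex, and 5 Dishevelled and Naked genes. All 56 symbols were present in every file. The libraries came from male C57BL/6 mice at 10 days post partum (dpp), from germ cells sorted as bright or medium for an Id4-GFP reporter, a gate meant to enrich spermatogonial stem cells. The Dnmt3A WT/WT group has 3 samples and the Dnmt3A KO/KO group has 3, and both carry the reporter. The labels do not say how the KO allele was made, in which cells Dnmt3a was lost, or whether a sample was 1 animal or a pool. The p-values below therefore set the genotype difference against the spread between these samples, which may not be the spread between animals. The comparison asks how loss of the de novo DNA methyltransferase Dnmt3a alters the RNA of these cells.

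Wnt proteins are secreted, lipid-modified ligands that bind a Frizzled receptor together with LRP5 or LRP6. In the canonical branch this stops a destruction complex of Axin, APC and GSK3 from marking beta-catenin for degradation, and beta-catenin then acts in the nucleus with TCF/LEF factors. R-spondins strengthen the response by drawing the ligases ZNRF3 and RNF43, which remove Frizzleds from the surface, away from them, whereas SFRP, DKK and WIF proteins are secreted inhibitors. In the testis, Sertoli cells and spermatogonia are both known to make Wnt ligands, and Wnt/beta-catenin signalling has been tied to proliferating, progenitor spermatogonia.

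Libraries held between 49694994 and 72742392 counts, of which gene rows took between 42681201 and 61749155. Dnmt3a stood at 215, 193 and 188 CPM (each gene's counts relative to the library total after TMM scaling) in WT/WT, and KO/KO libraries kept 90.2, 104 and 99.5 CPM, so RNA of the gene remained. No pair of libraries was a copy of another, with a chi-square per degree of freedom of at least 13.5 between any pair. By the same measure KO/KO replicate 1 lay between 38.4 and 39.3 from the WT/WT libraries and between 40.4 and 41.0 from the other KO/KO libraries. Marker sums of germ cell stages differed between the genotypes. Marker genes of spermatogonial stem cells summed to between 610.0 and 672 CPM for WT/WT, against 881 to 1221 CPM for KO/KO, those of progenitors to between 982 and 1076 and between 559 and 686 CPM, and those of differentiating spermatogonia to between 685 and 822 and between 446 and 582 CPM. Of 8 endothelial markers tested 4 rose, with sums of 36.9 to 43.3 and 124 to 163 CPM. Sertoli markers overlapped between genotypes, at 425 to 643 and 460.0 to 660.1 CPM, and so did interstitial stromal markers, at 215 to 293 and 166 to 248 CPM. Summed peritubular myoid markers lay higher in every KO/KO library (28.7 to 43.2 against 45.7 to 54.0 CPM), as did summed macrophage markers (1.32 to 2.26 against 3.85 to 4.87 CPM). Summed general germ cell markers lay lower (1420 to 1547 against 1241 to 1408 CPM). Gene by gene, 1 of 6 myoid markers tested rose and 0 fell, with a median log2 fold change of -0.15. Of 2 macrophage markers tested 1 rose, and the other did not pass, at -1.01 on the log2 scale. Of 8 germ cell markers tested 1 rose and 2 fell. Among the stage markers, 8 of 12 for stem cells rose and 2 fell, and 5 of 9 for progenitors fell and 0 rose. Of 8 differentiating markers 5 fell and 1 rose. In such bulk samples fewer cells of a type and less RNA per cell cannot be told apart.

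**Figure D1:**
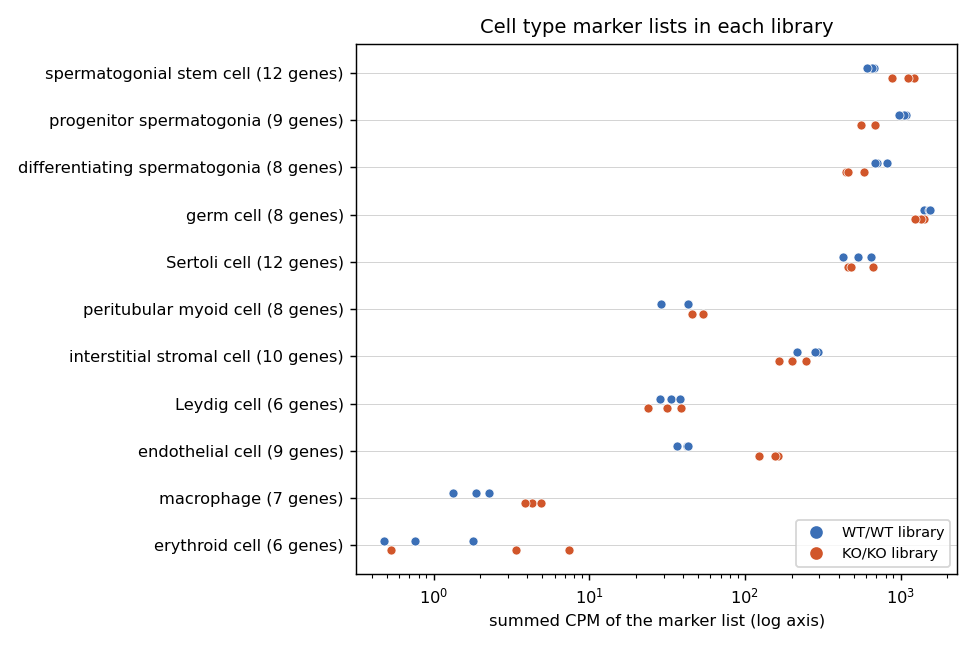
Summed CPM (log axis) of each fixed list of cell type markers in the 3 WT/WT (blue) and 3 KO/KO (orange) libraries, 1 point per library. The stem cell, endothelial, myoid and macrophage sums lie higher in every KO/KO library, and the progenitor, differentiating and germ cell sums lie lower, whereas the Sertoli, stromal, Leydig and erythroid sums overlap.

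In KO/KO more Wnt pathway genes fell than rose. Of the 51 that passed the filter on low counts, 15 were lower and 4 higher (quasi-likelihood F test of edgeR, with p adjusted by Benjamini-Hochberg over all genes tested and a threshold of 0.05). The lower genes make up 29.4% of the 51, against 6.42% of all 21314 genes tested, and the higher genes 7.84%, against 8.33%. Both directions together came to 37.3%, against 14.8% of all genes. The median log2 fold change was -0.26 over the 51 genes and 0.00 over all genes, and 8 of the 51 fell at least 2-fold, 15.7% against 2.41% of all genes. The 3 that rose at least 2-fold stand beside 3.99% of all genes. Groups did not overlap for 32 of the 51 (62.7%, against 35.8% of all genes). Every KO/KO library was lower for 25 of them and higher for 7, where 17.5% and 18.2% of all genes had such a pattern. The counts depended on single libraries, with 8 lower without WT/WT replicate 3 and 2 higher without WT/WT replicate 2. Over all genes the counts also shrank in these fits, from 1368 to 663 lower and from 1776 to 814 higher. The other 5 genes, Wnt3a, Wnt10a, Wnt10b, Rspo3 and Dkk1, did not pass the filter and had at most 15 counts in any library.

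**Figure D2:**
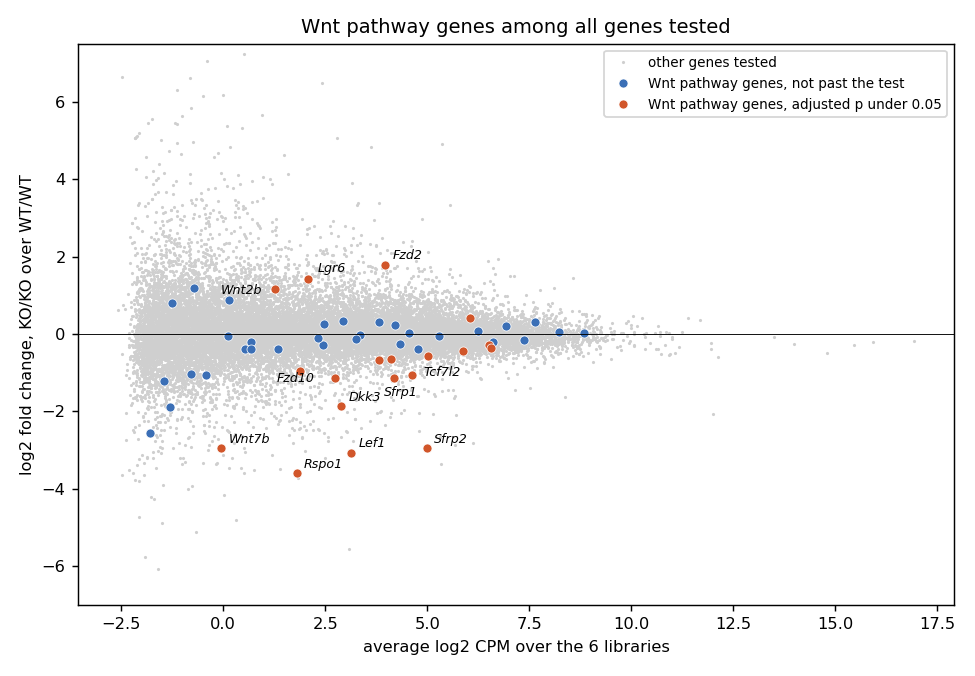
Log2 fold change of KO/KO over WT/WT against average log2 CPM for all genes tested (grey) and the 51 tested Wnt pathway genes (orange, adjusted p under 0.05; blue, not past the test), 1 point per gene. Of the 19 orange points, 15 lie below 0 and 4 above, and genes changed at least 2-fold are named.

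Of the 19 genes past the test, 10 kept their call when any 1 library was left out and under each other scaling, filter and tool that was tried. These were Rspo1, Lef1, Wnt7b, Sfrp2, Dkk3, Sfrp1, Fzd10 and Tcf7l2, all lower, and Fzd2 and Lgr6, both higher. The remaining 9 are given below with the libraries on which they rest, and all of them but Wnt2b (log2 fold change 1.17) changed less than 2-fold. Among the 15 lower genes the KO/KO value closest to WT/WT was that of replicate 1 in 11 cases, of replicate 2 in 3 and of replicate 3 in 1. The same count was not made over all lower genes. By chi-square per degree of freedom over genes at large, replicate 1 was also nearest to WT/WT (38.4 to 39.3, against 78.0 to 101 for replicates 2 and 3). That distance has no direction, so it does not give the order for lower genes. Kit, the receptor of differentiating spermatogonia, was also closest to WT/WT in replicate 1. It had 38.6, 5.63 and 8.44 CPM in KO/KO replicates 1, 2 and 3 and 118, 98.9 and 150 CPM in WT/WT (its own log2 fold change was -2.81). Kit is 1 of 8 differentiating markers, of which 5 fell, 1 rose and 2 did not pass, and the replicate order of the others is not given here. The part of cell stage in the Wnt values was not tested.

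**Figure D3:**
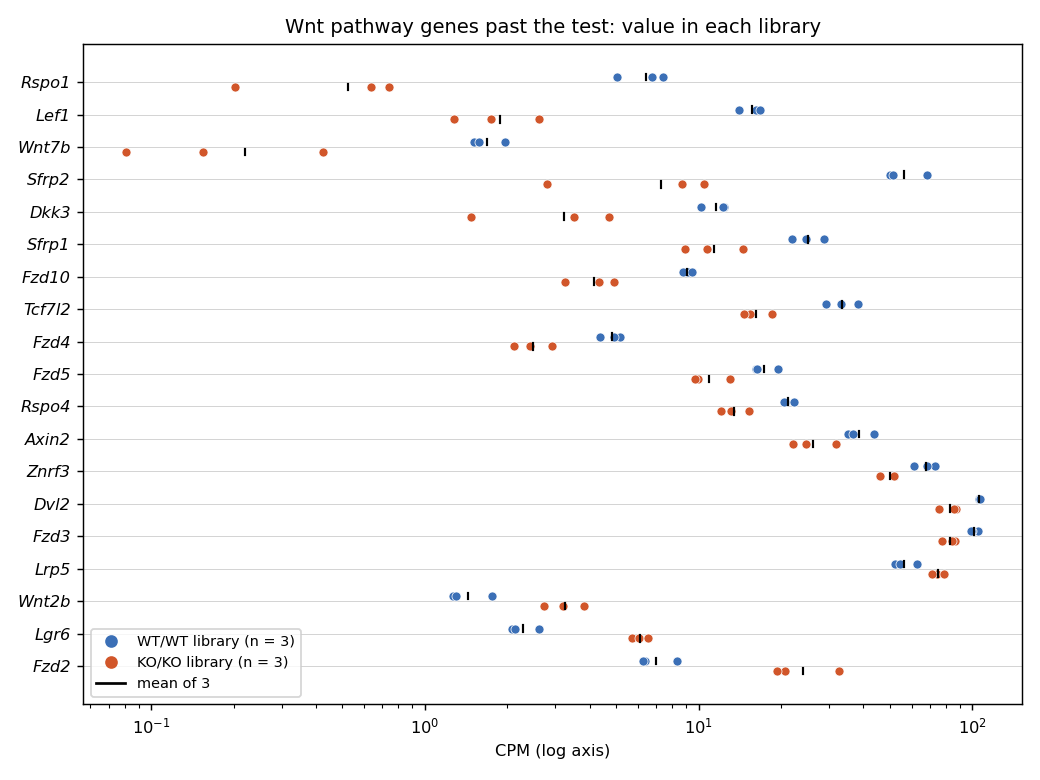
CPM (log axis) of the 19 Wnt pathway genes past the test in each WT/WT (blue) and KO/KO (orange) library, with the mean of 3 as a black bar, ordered by fold change. The genotypes do not overlap for any of the 19, and the fold change is largest for Rspo1, Lef1, Wnt7b and Sfrp2.

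Promoter sequence is shown for 3 genes that fell and 2 that rose, because DNMT3A acts on CpG dinucleotides and these windows show how many lie at each start site. DNA methylation itself was not measured in the files used here. RefSeq windows (GRCm38.p6, 250 bases before to 50 after a start) were found by symbol for 38 of the 56 genes, 12 of them past the test. Capitals mark CpG dinucleotides, and each sequence reads 5′ to 3′ on the strand of the gene.
Rspo1, chr4:124986180-124986479, plus strand: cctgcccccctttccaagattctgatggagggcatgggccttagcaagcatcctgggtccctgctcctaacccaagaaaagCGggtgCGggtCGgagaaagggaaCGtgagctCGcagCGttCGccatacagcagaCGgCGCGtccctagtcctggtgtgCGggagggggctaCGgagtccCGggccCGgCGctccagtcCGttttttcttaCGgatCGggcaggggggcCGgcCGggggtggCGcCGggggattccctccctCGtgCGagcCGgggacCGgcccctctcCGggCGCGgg
Sfrp2, chr3:83766071-83766370, plus strand: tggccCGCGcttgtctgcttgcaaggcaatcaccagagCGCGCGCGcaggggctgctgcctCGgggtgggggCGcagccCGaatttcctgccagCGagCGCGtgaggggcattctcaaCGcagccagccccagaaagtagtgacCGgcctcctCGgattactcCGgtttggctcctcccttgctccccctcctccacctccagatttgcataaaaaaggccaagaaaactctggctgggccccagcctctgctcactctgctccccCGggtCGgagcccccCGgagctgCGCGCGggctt
Lef1, chr3:131110073-131110372, plus strand, 1 of 4 windows: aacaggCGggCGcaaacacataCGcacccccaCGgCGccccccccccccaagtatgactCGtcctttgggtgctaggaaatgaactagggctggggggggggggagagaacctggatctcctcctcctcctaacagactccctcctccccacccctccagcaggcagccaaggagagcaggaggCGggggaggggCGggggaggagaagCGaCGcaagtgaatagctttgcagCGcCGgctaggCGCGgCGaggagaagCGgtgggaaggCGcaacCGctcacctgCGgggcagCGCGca
Wnt2b, chr3:104961660-104961959, minus strand: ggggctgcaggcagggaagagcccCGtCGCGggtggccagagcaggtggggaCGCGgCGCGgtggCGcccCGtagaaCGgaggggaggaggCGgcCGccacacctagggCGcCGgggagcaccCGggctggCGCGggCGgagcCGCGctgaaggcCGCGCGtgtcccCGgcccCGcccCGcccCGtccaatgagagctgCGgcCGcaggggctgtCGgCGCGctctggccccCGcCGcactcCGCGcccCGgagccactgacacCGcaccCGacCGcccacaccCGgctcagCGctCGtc
Lgr6, chr1:135105227-135105526, minus strand: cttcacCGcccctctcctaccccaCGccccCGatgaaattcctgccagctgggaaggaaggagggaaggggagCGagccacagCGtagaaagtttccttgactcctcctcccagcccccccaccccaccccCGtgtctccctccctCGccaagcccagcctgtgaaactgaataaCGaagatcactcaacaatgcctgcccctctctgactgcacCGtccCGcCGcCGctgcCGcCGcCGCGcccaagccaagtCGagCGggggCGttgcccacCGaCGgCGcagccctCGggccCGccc
The Rspo1 window holds 29 CpG, that of Sfrp2 22 and the Lef1 window shown 21 (the other Lef1 windows hold 18, 8 and 5), and all 3 genes fell, whereas the windows of Wnt2b and Lgr6, which rose, hold 43 and 24. The median was 24.5 over the 48 windows of Wnt pathway genes and 7 over all 32851 windows of this length. Windows of genes past the test had a median of 25.5 CpG where the gene was lower (14 windows), and the 32 windows of genes not past the test had 24.5. Lgr6 and Wnt2b gave the 2 windows of higher genes. The TCF/LEF letters CTTTGAA or CTTTGAT, searched on both strands, were found in 3 of the 48 windows (6.25%, against 8.65% of all windows): that of Dkk1, 1 of 2 windows of Wnt11 and 1 of 3 windows of Wnt5b. None of the 16 windows of genes past the test held them.

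Among ligands, 1 rose, 1 fell and 8 of the 10 tested did not pass, with Wnt6 the most abundant per length. Each direction came to 10% of the ligands tested, beside 8.33% higher and 6.42% lower of all genes. Wnt6 had 4.63 ± 0.421 CPM per kilobase of exon in WT/WT and 4.57 ± 1.13 in KO/KO (SD, n = 3 each), followed in WT/WT by Wnt3 (1.94 ± 0.233) and Wnt5b (1.88 ± 0.357), which did not differ beyond their spread. Wnt6 made up 44.2% ± 1.13 of the ligands' summed level per length in WT/WT and 43.3% ± 6.90 in KO/KO (n = 3 each), and the sums themselves overlapped, at 10.5 ± 1.14 and 10.5 ± 1.22 CPM per kilobase. Sertoli cells are a known source of Wnt6, and the range of their markers is given above. Its part in the ligand values was not tested.

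Wnt7b, a canonical ligand on chromosome 15 (85535437 to 85582473, GRCm38), stood at 1.51, 1.58 and 1.96 CPM in the WT/WT libraries, and KO/KO libraries gave 0.424, 0.0811 and 0.155 CPM. Every KO/KO library lay below every WT/WT library, and the gene fell by 2.95 on the log2 scale (SE 0.52, edgeR adjusted p = 0.00545), or by 3.76 without KO/KO replicate 1. These values rest on 66, 76 and 80 counts against 19, 4 and 10. Wnt2b, a canonical ligand on chromosome 3, had 1.76, 1.27 and 1.30 CPM among WT/WT samples, while KO/KO samples had 2.73, 3.81 and 3.21 CPM, a log2 fold change of 1.17 (SE 0.25, edgeR adjusted p = 0.0134). Leaving out WT/WT replicate 2 gave an adjusted p of 0.0729 and leaving out replicate 3 one of 0.0600, so the call rests on both.

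Wnt4, the ligand best known from ovary and kidney development, had 30, 16 and 12 counts in WT/WT and 3, 0 and 9 in KO/KO. The groups did not overlap, but the log2 fold change of -2.55 did not pass (edgeR adjusted p = 0.0666). DESeq2 called it (adjusted p = 0.0456), and so did edgeR without KO/KO replicate 3 (log2 fold change -3.64, adjusted p = 0.0485). The non-canonical ligand Wnt5a was near equal, at 5.13 ± 0.619 and 4.80 ± 0.819 CPM (SD, n = 3 each), with a 95% interval of the log2 fold change from -0.54 to 0.35. Intervals were wide for the scarce ligands Wnt2, Wnt7a and Wnt11, whose estimates ran from -1.04 (Wnt7a) to 1.18 (Wnt11) on the log2 scale.

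**Figure D4:**
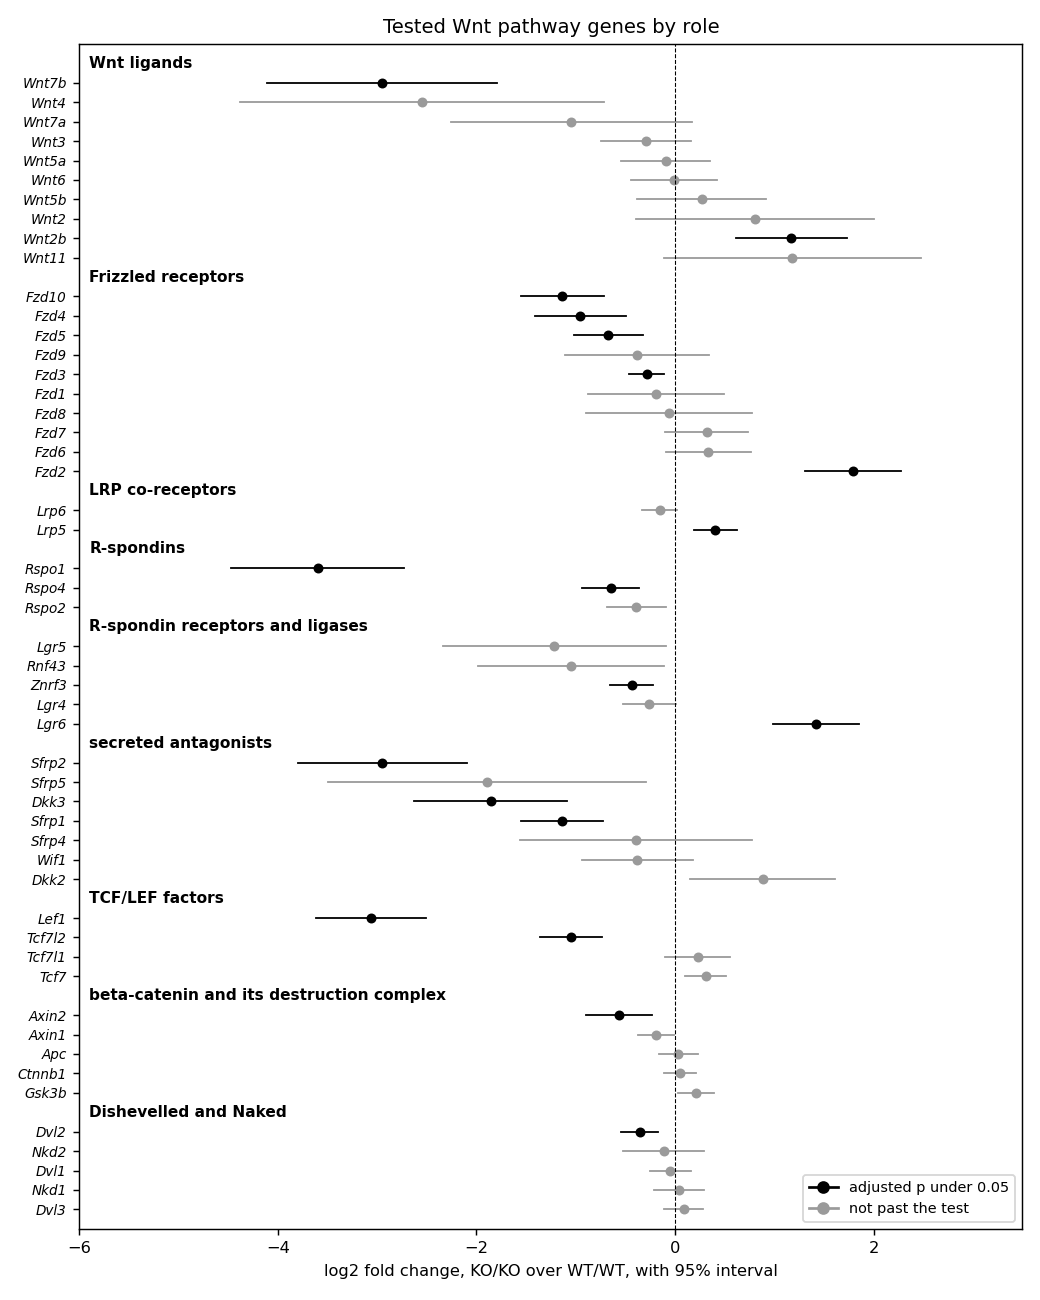
Log2 fold change of KO/KO over WT/WT with its 95% interval for the 51 tested Wnt pathway genes, grouped by role (black, adjusted p under 0.05; grey, not past the test). Black points to the left of 0 include Rspo1, Lef1, Wnt7b and Sfrp2, and those to the right are Wnt2b, Fzd2, Lrp5 and Lgr6.

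Of the 10 Frizzled receptors, 1 rose and 4 fell (10% and 40%, beside 8.33% and 6.42% of all genes). Fzd2, on chromosome 11 (102604396 to 102608058), stood at 8.31, 6.36 and 6.25 CPM in the WT/WT libraries, and KO/KO libraries gave 20.6, 19.3 and 32.5 CPM. It was the only Frizzled that rose, by 3.47-fold (log2 fold change 1.79, SE 0.22, edgeR adjusted p = 0.00101), and KO/KO replicate 3 was the highest library. Fzd10, on chromosome 5, went from 9.13, 8.74 and 9.44 CPM to 4.89, 3.24 and 4.31 CPM and fell by 1.13 on the log2 scale (SE 0.19, edgeR adjusted p = 0.00415). All 3 KO/KO libraries lay well below the narrow WT/WT range.

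Fzd4, Fzd5 and Fzd3 also fell, with less support. For Fzd4, which also binds the ligand Norrin, WT/WT libraries held 4.36, 5.17 and 4.90 CPM and KO/KO libraries 2.90, 2.43 and 2.12 CPM (log2 fold change -0.95, edgeR adjusted p = 0.0136). Fzd5 had 19.5, 16.2 and 16.3 CPM against 9.96, 13.0 and 9.68 CPM (log2 fold change -0.67, edgeR adjusted p = 0.0191), and 17.8% of its exon bases lie under a gene on the opposite strand. Fzd3, which is best known from planar cell polarity, had 105, 99.4 and 99.3 CPM against 86.8, 84.3 and 77.8 CPM (log2 fold change -0.29, edgeR adjusted p = 0.0403). The call of Fzd4 was lost without WT/WT replicate 2 or 3, that of Fzd5 without any library but KO/KO replicate 2, and that of Fzd3 without any library but KO/KO replicate 2 and with DESeq2 (adjusted p = 0.0697) or upper quartile factors (adjusted p = 0.0627). Without WT/WT replicate 2 or 3 only Fzd10 was left among the 4 lower Frizzleds. The 5 Frizzleds that did not pass had log2 fold changes between -0.38 (Fzd9) and 0.34 (Fzd6).

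The makeup of the receptor pool, given here as values without a test, differed while its summed level per length overlapped between genotypes. Fzd3 took 37.2% ± 0.575 of the summed Frizzled level per kilobase in WT/WT and 29.0% ± 4.15 in KO/KO (SD, n = 3 each). Fzd2 took 10.3%, 8.45% and 8.07% in WT/WT and 24.8%, 26.2% and 35.8% in KO/KO, which made it the largest share in KO/KO replicate 3 and the second largest in the other 2. Fzd10 went from 13.2% ± 0.511 to 5.65% ± 0.888 (n = 3 each). The sum was 21.3 ± 0.782 CPM per kilobase in WT/WT and 22.5 ± 2.32 in KO/KO. On the CPM scale without length, where the long Fzd3 transcript weighs more, the sum was 163 ± 5.67 and 152 ± 6.98 CPM and the genotypes did not overlap, so the order of the sums depends on the scale.

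Of the LRP co-receptors, Lrp5 rose from 52.2, 54.5 and 62.8 CPM to 74.6, 79.1 and 71.0 CPM (log2 fold change 0.41, SE 0.10, edgeR adjusted p = 0.0215). That p rose to 0.102 when WT/WT replicate 1 was left out and to 0.119 when replicate 2 was. Lrp6 had 175, 167 and 180 CPM among WT/WT samples, while KO/KO samples had 162, 163 and 143 CPM, and the difference did not pass (log2 fold change -0.16, edgeR adjusted p = 0.233). Lrp6 remained the more abundant per length, but Lrp5 made up 31.3% ± 1.65 of the pair in WT/WT and 40.3% ± 0.945 in KO/KO (SD, n = 3 each).

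Of the 3 R-spondins tested 2 fell (66.7%, beside 6.42% of all genes), and Rspo1 fell by the most of any of the 51 Wnt pathway genes tested. Rspo1, a secreted amplifier of Wnt signals known for its role in the ovary, lies on chromosome 4 (124986430 to 125009099). Its level was 7.42, 6.77 and 5.02 CPM for WT/WT, next to 0.737, 0.203 and 0.636 CPM for KO/KO. The fall was 12.1-fold (log2 fold change -3.60, SE 0.39, edgeR adjusted p = 0.000638), and without any 1 library it stayed between -3.88 and -3.22 on the log2 scale. Rspo4 was the most abundant R-spondin per length in WT/WT and went from 20.6, 20.5 and 22.4 CPM to 15.3, 12.0 and 13.2 CPM (log2 fold change -0.65, SE 0.13, edgeR adjusted p = 0.00947), with an adjusted p of 0.0506 without WT/WT replicate 3.

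Rspo2 lay lower in every KO/KO library, at 19.4, 26.7 and 25.0 CPM against 30.5, 33.2 and 29.3 CPM in WT/WT, without passing (log2 fold change -0.39, edgeR adjusted p = 0.0827). It passed without KO/KO replicate 2 (adjusted p = 0.0412). Summed per kilobase, the 4 R-spondins came to 18.6, 18.6 and 17.8 CPM for WT/WT, next to 10.7, 10.4 and 10.8 CPM for KO/KO, with no overlap. Rspo1 made up 18.0% ± 3.09 of that sum in WT/WT and 2.54% ± 1.36 in KO/KO (SD, n = 3 each), and Rspo4 stayed at 48.8% ± 3.74 and 53.7% ± 6.19 (n = 3 each).

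Of the 5 R-spondin receptors and ligases, 1 rose, 1 fell and 3 did not pass. Each direction came to 20% of the 5, beside 8.33% higher and 6.42% lower of all genes. Every KO/KO library was lower for 4 of the 5 (Lgr4, Lgr5, Znrf3 and Rnf43), a pattern that 17.5% of all genes had. Lgr6, an R-spondin receptor, rose from 2.08, 2.14 and 2.62 CPM to 5.72, 6.06 and 6.51 CPM (log2 fold change 1.42, SE 0.19, edgeR adjusted p = 0.00164), with narrow ranges in both genotypes. Lgr4, the most abundant of the 3 Lgr genes per length, had 22.7, 21.6 and 22.0 CPM against 20.3, 18.7 and 16.4 CPM and did not pass (log2 fold change -0.26, edgeR adjusted p = 0.177). Lgr5, a marker of many adult stem cells, was scarce, at 0.458 ± 0.0442 and 0.193 ± 0.0797 CPM (SD, n = 3 each, edgeR adjusted p = 0.138). The ligase gene Znrf3, itself a known Wnt target, fell from 72.9, 61.3 and 68.5 CPM to 51.9, 51.6 and 46.2 CPM (log2 fold change -0.44, SE 0.10, edgeR adjusted p = 0.0162). That p was 0.0784 with WT/WT replicate 1 left out and 0.0684 with replicate 3 left out. Its relative Rnf43 was at or under 1.26 CPM in every library and did not pass (log2 fold change -1.05, edgeR adjusted p = 0.127).

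Secreted antagonists had the lowest median of the 9 role groups, a log2 fold change of -1.14. Of 7 tested, 3 were lower (42.9%, beside 6.42% of all genes) and none higher. Sfrp2, a soluble Frizzled-like inhibitor on chromosome 3 (83766321 to 83774316), stood at 49.9, 51.4 and 68.1 CPM in the WT/WT libraries, and KO/KO libraries gave 10.5, 2.80 and 8.68 CPM. It had rank 5 among all 56 genes by level per kilobase in WT/WT, and fell by 2.95 on the log2 scale (SE 0.38, edgeR adjusted p = 0.00136). Of its exon bases, 16.1% lie under a gene on the opposite strand. Sfrp1 went from 28.7, 24.6 and 21.9 CPM to 8.94, 14.6 and 10.7 CPM (log2 fold change -1.14, SE 0.19, edgeR adjusted p = 0.00392). Dkk3, a divergent Dickkopf member, went from 12.4, 12.3 and 10.2 CPM to 4.71, 3.51 and 1.47 CPM (log2 fold change -1.86, SE 0.34, edgeR adjusted p = 0.00712).

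For all 3 the genotypes were far apart, but the KO/KO libraries did not share an order: KO/KO replicate 2 was lowest for Sfrp2 and highest for Sfrp1. The summed level of the 8 antagonists was 37.5 ± 3.89 CPM per kilobase in WT/WT and 8.64 ± 1.22 in KO/KO (SD, n = 3 each), a ratio of 4.34. Sfrp2 alone made up 69.5% ± 5.17 of the sum in WT/WT and 37.7% ± 17.5 in KO/KO (n = 3 each). SFRP and DKK3 RNAs are also made by stromal cells. Of 9 stromal markers tested 2 fell, Col1a1 (66.3 ± 10.3 to 24.3 ± 6.05 CPM) and Pdgfra (19.6 ± 3.18 to 12.9 ± 0.476 CPM, SD, n = 3 each). The other 7 did not pass, with log2 fold changes between -0.36 and -0.02. Lum was at 0 to 8 counts in every library, and the part of stromal cells in the antagonist values was not tested. The inhibitor gene Dkk2 lay higher in every KO/KO library (1.36 ± 0.308 against 0.738 ± 0.132 CPM, n = 3 each) without passing (edgeR adjusted p = 0.103), and Wif1 and Sfrp4 overlapped between genotypes. Sfrp5 had a log2 fold change of -1.90 from few counts and did not pass (edgeR adjusted p = 0.109), but passed with no filter on low counts (adjusted p = 0.0326).

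**Figure D5:**
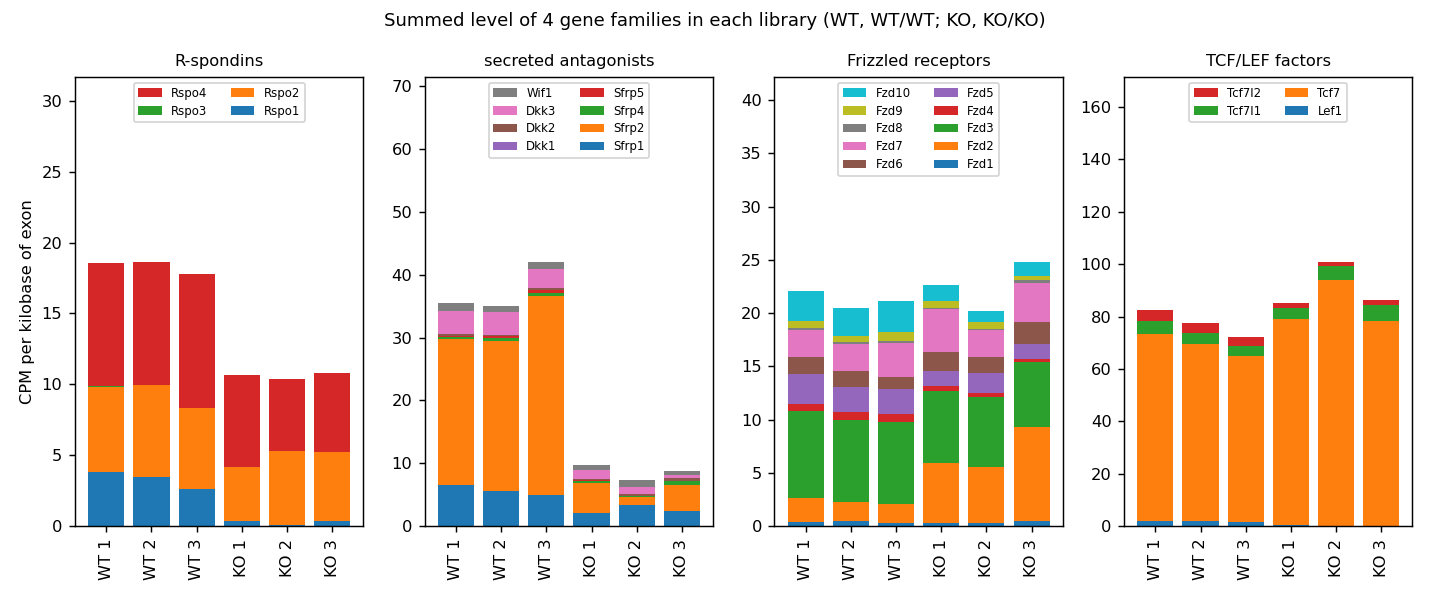
Stacked bars of the summed level, in CPM per kilobase of exon, of R-spondins, secreted antagonists, Frizzled receptors and TCF/LEF factors in each of the 6 libraries, with 1 colour per gene. The R-spondin and antagonist bars are shorter in all 3 KO/KO libraries, the Frizzled bars are of like height with a larger Fzd2 part, and the TCF/LEF bars consist mostly of Tcf7.

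Among the TCF/LEF factors, Lef1 and Tcf7l2 fell while Tcf7 and Tcf7l1 did not pass. Lef1, on chromosome 3 (131110471 to 131224356), had 16.2, 16.8 and 14.0 CPM among WT/WT samples, while KO/KO samples had 2.61, 1.28 and 1.75 CPM, an 8.36-fold fall (log2 fold change -3.06, SE 0.25, edgeR adjusted p = 0.000163). Every leave-one-out value lay between -3.35 and -2.85 on the log2 scale. On the opposite strand a gene model covers 13.7% of its exon bases. Tcf7l2, on chromosome 19, went from 38.2, 33.2 and 29.2 CPM to 15.4, 14.6 and 18.6 CPM (log2 fold change -1.05, SE 0.14, edgeR adjusted p = 0.00161). No KO/KO library reached the WT/WT range of either gene.

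Tcf7l1, mostly a repressor, did not pass (log2 fold change 0.23, edgeR adjusted p = 0.342).

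Tcf7 was the most abundant of all 56 genes per length. It stood at 188, 177 and 166 CPM in the WT/WT libraries, and KO/KO libraries gave 206, 247 and 205 CPM, higher in every KO/KO library but just short of the threshold (log2 fold change 0.31, edgeR adjusted p = 0.0524). It passed without KO/KO replicate 3 (adjusted p = 0.0437) and with a filter at 1 CPM in 3 libraries (adjusted p = 0.0478). Tcf7 made up 87.2% ± 0.593 of the summed TCF/LEF level per kilobase in WT/WT and 92.1% ± 1.38 in KO/KO (SD, n = 3 each). The share of Lef1 went from 2.30% ± 0.144 to 0.242% ± 0.103 and that of Tcf7l2 from 4.92% ± 0.332 to 2.06% ± 0.403 (n = 3 each). The summed TCF/LEF level per kilobase was 77.5 ± 5.23 CPM for WT/WT and 90.7 ± 8.78 CPM for KO/KO (n = 3 each), without overlap, and on the CPM scale without length, at 243 ± 18.3 and 257 ± 22.0 CPM, it overlapped.

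The core of the cytoplasmic pathway differed little. Ctnnb1, which encodes beta-catenin, had 297, 289 and 294 CPM among WT/WT samples, while KO/KO samples had 306, 287 and 318 CPM, and the 95% interval of its log2 fold change ran from -0.11 to 0.21 (edgeR adjusted p = 0.675). Apc, the scaffold of the destruction complex, had 457 ± 23.7 and 468 ± 46.1 CPM (SD, n = 3 each), with an interval from -0.16 to 0.23. Gsk3b, the kinase that marks beta-catenin, lay higher in every KO/KO library (log2 fold change 0.21, edgeR adjusted p = 0.108), and Axin1 lower (log2 fold change -0.20, edgeR adjusted p = 0.140), neither past the test.

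Axin2, a feedback inhibitor that Wnt signals induce in many tissues, was the 1 gene of this group that fell. It stood at 43.7, 35.3 and 36.7 CPM in the WT/WT libraries, and KO/KO libraries gave 22.1, 31.7 and 24.7 CPM, a small fall (log2 fold change -0.56, SE 0.15, edgeR adjusted p = 0.0323). The call was lost without any library but KO/KO replicate 2, with adjusted p between 0.0729 and 0.124. Nkd1, another induced feedback inhibitor, did not pass, at 23.3 ± 0.654 and 23.9 ± 2.43 CPM (n = 3 each) and an interval from -0.21 to 0.29. Of the Dishevelled genes, which relay the signal from Frizzled, Dvl2 fell from 106, 106 and 107 CPM to 87.0, 85.7 and 75.8 CPM (log2 fold change -0.36, SE 0.08, edgeR adjusted p = 0.0188). The call did not hold when any WT/WT library or KO/KO replicate 3 was left out (adjusted p between 0.0519 and 0.0875), and 18.3% of its exon bases lie under Acadvl on the opposite strand, which was at 30.7 ± 2.96 and 33.8 ± 3.15 CPM (SD, n = 3 each). Dvl1, Dvl3 and Nkd2 did not pass, with log2 fold changes of -0.05, 0.09 and -0.12.

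Ordered by level per kilobase of exon in WT/WT, Tcf7 came first at 67.5 ± 4.10 CPM per kilobase and Ctnnb1 second at 56.5 ± 0.795 (SD, n = 3 each). Apc, Axin1 and Sfrp2 followed at 28.4 ± 1.47, 27.2 ± 1.87 and 26.2 ± 4.70 (n = 3 each), and neighbours among these 3 did not differ beyond their spread. In KO/KO, Sfrp2 had rank 21 at 3.40 ± 1.86 CPM per kilobase, and Rspo1 went from rank 24 to rank 41, whereas Fzd2 went from rank 30 to rank 11. Wnt6, the highest ligand, had rank 19 in both genotypes.

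Beyond the 56 genes, 123 other genes of the pathway were listed by role, also with earlier results of these data known. Of the 111 tested 10 rose and 15 fell. These shares, 9.01% and 13.5%, stand beside 8.33% and 6.42% of all genes, and the median log2 fold change was -0.01. Leaving out WT/WT replicate 1, 2 or 3 gave 6, 5 and 5 rises and 6, 6 and 6 falls. Co-receptors, proteoglycans and antagonists outside the main list had 3 of 16 tested higher and 6 lower (18.8% and 37.5%). Cthrc1, a secreted protein tied to the polarity branch, went from 1.67, 1.72 and 1.81 CPM to 0.335, 0.182 and 0.0930 CPM, and Tpbg, a membrane inhibitor, from 13.6, 14.4 and 17.8 CPM to 3.98, 3.59 and 2.48 CPM (log2 fold changes -3.12 and -2.19, edgeR adjusted p = 0.00218 and 0.000346). The glypican gene Gpc3 fell by 1.34 and the LRP family gene Lrp4 rose by 1.11 on the log2 scale (edgeR adjusted p = 0.00111 and 0.00164). Without KO/KO replicate 1 the fold change of Cthrc1 was -3.66.

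Genes of Wnt processing and secretion gave no call, where 14.8% of all genes were called. Of 10 tested, 0 passed with edgeR, DESeq2 or limma-voom, and 1 had an unadjusted p under 0.05 with each tool. That gene by edgeR was Porcn, the acyltransferase that adds the lipid to Wnt proteins, at 2.42 ± 0.332 and 3.79 ± 0.251 CPM (SD, n = 3 each, edgeR adjusted p = 0.0646). Of 3 tested ligands outside the main list 0 passed with any of these tools (2 with an unadjusted p under 0.05 by edgeR, 1 by DESeq2 and 2 by limma-voom).

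Nuclear partners of beta-catenin had 2 of 21 tested higher and 3 lower (9.52% and 14.3%, beside 8.33% and 6.42% of all genes). The co-repressor gene Tle3 fell from 363, 340 and 365 CPM to 267, 249 and 245 CPM and its relative Tle2 rose from 14.6, 11.9 and 10.3 CPM to 19.8, 20.7 and 23.6 CPM (log2 fold changes -0.49 and 0.80, edgeR adjusted p = 0.00254 and 0.00765). Nlk, a kinase that acts on TCF/LEF factors, rose by 0.45 and Pygo2, a co-activator, fell by 0.37 on the log2 scale, and neither call held throughout. That of Nlk rested on WT/WT replicates 2 (0.0845 as adjusted p once left out) and 3, and that of Pygo2 on every WT/WT replicate (adjusted p = 0.119 without replicate 1) and on KO/KO replicate 3. In the destruction complex list 2 of 20 tested rose, among them Dact3 (log2 fold change 1.14, edgeR adjusted p = 0.00545), and Apc2 fell (log2 fold change -0.91, edgeR adjusted p = 0.0130, or 0.0548, 0.0529 and 0.0502 without WT/WT replicates 1, 2 and 3). The shares of that list, 10% higher and 5% lower, stand beside 8.33% and 6.42% of all genes. The planar polarity and calcium branches had 2 of 22 tested higher and 1 lower (9.09% and 4.55%, beside 8.33% and 6.42% of all genes). Nfatc2, a calcium-regulated factor, rose from 40.0, 34.5 and 38.5 CPM to 73.5, 84.9 and 79.9 CPM (log2 fold change 1.08, edgeR adjusted p = 0.000281).

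Of 19 tested genes reported elsewhere as beta-catenin targets, 1 rose and 4 fell (5.26% and 21.1%, beside 8.33% and 6.42% of all genes). Sp5, a transcription factor induced by Wnt in many settings, had 2.03, 1.66 and 2.52 CPM among WT/WT samples, while KO/KO samples had 0.581, 0.0811 and 0.0465 CPM (log2 fold change -3.20, SE 0.70, edgeR adjusted p = 0.0153). KO/KO replicate 1 was again the closest to WT/WT, and the fold change was -5.00 without it. Leaving out WT/WT replicate 3 ended the call of Sp5 (adjusted p = 0.0607), and without that replicate 0 genes of this list passed. T (brachyury) rose by 1.59 on the log2 scale, and it is also among the 12 stem cell markers listed here, of which 8 rose and 2 (Bcl6b and Egr4) fell. The call of T rests on WT/WT replicates 2 and 3 (adjusted p = 0.0649 and 0.0615 with each left out). Cd44 and Nrcam fell by 1.63 and 0.89 on the log2 scale. The call of Cd44 was lost without WT/WT replicate 1 or 3, and that of Nrcam without any library but KO/KO replicate 3. The median of the 19 genes was -0.01, next to 0.00 for all genes.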

How the data were processed

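RNA from 6 samples, 3 of each genotype, was read as 1 count table per sample. The authors aligned reads to mm10 with STAR 2.7.0a and counted them with featureCounts 1.5.1, per the submitters' processing notes, and the deposited values are raw counts per gene and per transposable element. Which annotation was used, whether counting used strand and how multimapping reads were handled is not stated in the labels or notes, so genes that overlap on opposite strands cannot be separated. Transposable element rows, between 14.1% and 15.5% of each library's counts, were left out of library sizes.

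Gene counts were scaled by TMM, filtered with filterByExpr and tested with edgeR 4.0.16 (R 4.3.3) by its two-sided quasi-likelihood F test, genotype being the only term, and p-values were adjusted by Benjamini-Hochberg over 21314 genes (threshold 0.05). The SE is the log2 fold change divided by the square root of F. CPM per kilobase used the union of GENCODE exons on GRCm38. Gene lists and the 56 genes were chosen with earlier results of these data known. Of the 56 genes every one past the test was named, and from each other pathway list up to 4 genes with the smallest p. Some other pathway genes past the test are therefore not named. Genes under 1 CPM in some library that did not pass (Wnt4, Wnt2, Wnt7a, Wnt11, Lgr5, Rnf43, Dkk2, Sfrp5) were singled out after their values were seen. On simulated counts for 21314 genes with 200 changed, the fit recovered 50% of 2-fold and 82% of 4-fold changes, and 8.33% of calls were false. In the data themselves 3144 genes were called, so the simulated setting differs and its rates may not carry over. With 3 libraries a genotype an exact two-sided permutation test cannot go below p = 0.1, so none is given. Alternatives were RLE and upper quartile factors, other filters, DESeq2 1.42.0, limma-voom 3.58.1, stricter thresholds, added transposable element rows, the replicate number as a block and each library left out.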

Additional observations from a re-analysis of the deposited data

How the results depend on the processing

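No fold change past the test changed sign under any alternative run. Fold changes that did not pass changed sign 14 times, in 9 genes, each with 1 library left out and none past the test there, and their leave-one-out log2 values ran from -0.20 to 0.042 for Wnt5a, from -0.18 to 0.17 for Wnt6, from -0.49 to 0.14 for Fzd8, from -1.29 to 0.028 for Sfrp4, from -0.038 to 0.12 for Apc, from -0.077 to 0.013 for Dvl1, from -0.039 to 0.11 for Nkd1, from -0.33 to 0.0033 for Nkd2 and from -0.22 to 0.15 for Wnt9b. At an adjusted p under 0.01, 756 genes were higher and 501 lower in KO/KO, against 1776 and 1368 at 0.05, and with a further 2-fold minimum 850 and 513. For the Wnt pathway genes, the 0.01 threshold left 2 higher and 9 lower, and the 2-fold minimum left 8 lower. For the other pathway genes these settings gave 4 and 5 higher and 4 and 6 lower. Leaving out 1 library at a time gave between 814 and 1985 genes higher and between 560 and 1380 lower, between 2 and 5 Wnt pathway genes higher and between 8 and 16 lower, and between 5 and 12 other pathway genes higher and between 6 and 14 lower. Where this left 1 genotype with 2 libraries, the spread was pooled over both genotypes. DESeq2 and limma-voom each called 15 Wnt pathway genes lower. With no filter beyond a total count above 0, edgeR also called Wnt4 (adjusted p = 0.0186), Rspo2 (0.0375), Sfrp5 (0.0326) and Tcf7 (0.0152). The replicate numbers did not pair the samples: deviations of same-numbered libraries correlated at -0.09, 0.04 and 0.02. With the replicate block 14 Wnt pathway genes were lower and 4 higher, Fzd3 having lost its call (adjusted p = 0.0784), 9 other pathway genes were higher and 11 lower, with the lower beta-catenin targets going from 4 to 2 (Cd44, adjusted p = 0.0531, and Nrcam, 0.0508, lost) and the lower nuclear cofactors from 3 to 1 (Pygo2, 0.0591, among the lost), and 1467 and 1107 of all genes were higher and lower. Of 28 shares within a receptor or factor family, 25 moved by more than the spread between replicates when exon length was left out: on the CPM scale Tcf7 took 72.8% ± 1.08 of the TCF/LEF sum in WT/WT and 85.1% ± 2.40 in KO/KO (SD, n = 3 each), and Fzd2 4.27% and 15.8% of the Frizzled sum. Genes under about 1 CPM rest on few counts, and their changes were not well resolved at this depth.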
